A study of Mus musculus with 16 samples.

Results

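Genes of cell cycle control and DNA replication were examined in primary fibroblasts grown from the inguinal mammary glands of female 129S6 mice 8 to 10 weeks old. The genes were chosen by name, as 58 symbols for 57 genes (CDC2A and CDK1 are the older and the newer symbol of 1 gene), and 52 of the 18132 genes in the table matched. GINS2, AURKB, KIF20A, RACGAP1 and MKI67 were not analysed here. By role, 4 of the genes act in G1, 18 in the start and the running of S phase, and 30 in mitosis. The cells were MEKK1+/+ or MEKK1-/-, that is, with or without the kinase encoded by Map3k1. Each genotype was kept in growth medium (DMEM with 10% FBS, CTL) or exposed for 8 h to CM, growth medium conditioned by MDA-MB-231 cells, a human breast cancer line. RNA from each of the 4 groups was hybridized to 4 Illumina Mouse 8 arrays, 16 in all. The study's methods name 3 mice per genotype, and a figure legend of the study names 4 culture replicates per group. The p-values thus measure the spread between cultures, some of which share a mouse.

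A cell enters the cycle when D-type cyclins and then cyclin E activate kinases that release E2F factors from the retinoblastoma protein. E2F factors turn on the genes of S phase: the loaders of the MCM helicase, the helicase itself and the enzymes that make deoxynucleotides. A second wave of genes, with cyclin B, the mitotic kinases, kinetochore proteins and spindle motors, follows in G2 and mitosis under FOXM1 and the MuvB complexes, and inhibitors such as p21 (CDKN1A) and p18 (CDKN2C) hold the kinases in check. Since many S phase and mitotic genes follow the share of dividing cells, fewer dividing cells and less RNA per cell cannot be told apart in RNA from whole cultures.

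Values are log2 intensities after quantile normalization of the deposited intensities, and differences are between group means on that scale. The deposited array medians lay between 114 and 170.1, and arrays of the same group correlated at 0.979 to 0.996 over all genes. The 99th percentile of 1075 olfactory receptor genes, which fibroblasts are not known to use, served as a background level and lay between 7.20 and 7.34 on the 16 arrays. Of the 52 genes, 36 were above it on every array, 8 on some and 8 on none. The 8 on none were CCNE2, MCM7, CCNA2, CCNB2, BUB1, CENPE, ECT2 and HMMR, so that cyclin A2, for example, gave 6.74 to 7.19 over all arrays and was not well above background on any. Of 12 fibroblast markers, 11 were above background on every array. MAP3K1, the targeted gene, gave 7.95, 7.77, 7.60 and 7.51 on the MEKK1+/+ CTL arrays and 8.06, 8.31, 8.17 and 8.41 on the MEKK1-/- CTL arrays, and with CM 7.42, 7.71, 8.18 and 7.64 against 8.08, 7.79, 8.29 and 8.13. Its mean on arrays labelled MEKK1-/- was the higher one (difference 0.53 ± 0.15, SE, in CTL, limma adjusted p = 0.465). Where the probe lies relative to the altered part of the gene is not given in the sources used here, so this gene does not check the labels, and a direction between genotypes is a direction between arrays so labelled.

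Some arrays stood apart from their group in these genes. Both MEKK1+/+ arrays with replicate number 2 were the highest of their group, in 40 of the 52 genes for CTL and 35 for CM. By contrast, the MEKK1-/- arrays numbered 2 were the lowest of theirs, in 40 and 39 genes. The MEKK1-/- arrays numbered 1 were the highest, in 43 and 41 genes. Over the whole table, any 1 array was the highest of its group for between 18.2% and 29.6% of all genes.

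Markers of other cell types differed on the same arrays. Macrophage markers (17 of 17 measured, 9 above background on every array; ITGAM, FCER1G and MSR1 on none) had summed intensities of 33615 to 85757 in MEKK1+/+ CTL, 28502 to 79523 in MEKK1+/+ CM, 13924 to 70197 in MEKK1-/- CTL and 14642 to 60804 in MEKK1-/- CM. The lowest MEKK1+/+ values and the highest MEKK1-/- values of these sums were those of the arrays numbered 2. In CTL, array 2 gave 33615 in MEKK1+/+ cells, where the other MEKK1-/- arrays gave 13924 to 35794, and 70197 in MEKK1-/- cells, where the other MEKK1+/+ arrays gave 59080 to 85757. The mean deviation of the mitotic genes in CTL was 0.18 on MEKK1+/+ array 2, beside 0.10 and 0.09 on MEKK1-/- arrays 3 and 4, and -0.21 on MEKK1-/- array 2, beside -0.27 to -0.19 on the other MEKK1+/+ arrays. In both measures the CTL arrays numbered 2 thus lay nearer to arrays of the other genotype than to most of their own. Other values did not all lie this way. MAP3K1 gave 7.77 and 8.31 on MEKK1+/+ and MEKK1-/- CTL array 2, within the values of their own groups. Endothelial marker sums on these arrays were 1404 and 1446. The other MEKK1+/+ CTL arrays gave 1179 to 1308, and the other MEKK1-/- CTL arrays 1530 to 2421. The epithelial sum on MEKK1-/- CTL array 2 was 1549, within the 1492 to 1593 of MEKK1+/+ CTL. The labels were kept as given, and whether they are right for the arrays numbered 2 was not tested. Epithelial markers (10 of 12 measured, 2 above background on every array; KRT5 on none) summed to 12363 and 11200 on the MEKK1-/- arrays numbered 1, against 1344 to 2156 on the other 14. Endothelial markers (9 of 9 measured, 0 above background on every array; KDR and TIE1 on none) summed to 1179 to 1404 and 1189 to 1468 in MEKK1+/+ CTL and CM, and to 1446 to 2421 and 1484 to 2412 in MEKK1-/- CTL and CM, the highest on the MEKK1-/- arrays numbered 1. Of the 9, 8 had a higher mean on MEKK1-/- arrays in CTL and 8 with CM (median differences 0.27 and 0.22, with 4 and 3 at an unadjusted p under 0.05 and 0 called by limma). The part of these markers in the cell cycle values was not tested, and results that rest on these arrays are given with and without them. The map of all 52 genes on all arrays and the plot of their means beside the marker lists show these arrays.

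**Figure D1:**
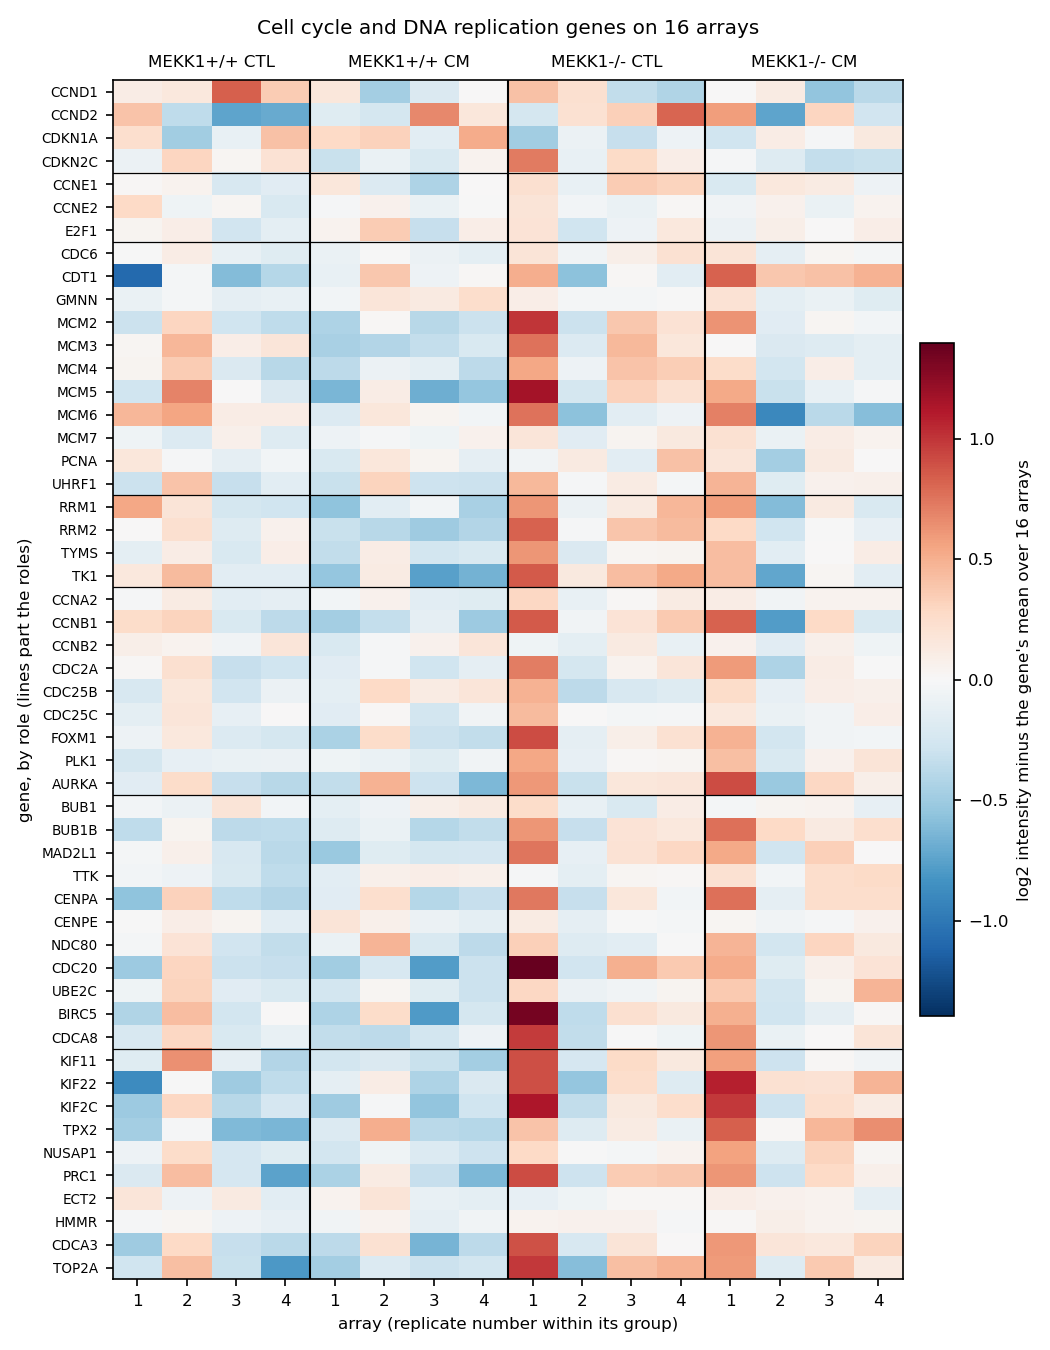
Log2 intensity of each of the 52 genes (rows, ordered by role) on each of the 16 arrays (columns, by group and replicate number), as the difference from the gene's mean over all arrays; red is higher and blue is lower. The MEKK1-/- arrays numbered 1 are the highest of their group for 43 and 41 genes, and the MEKK1-/- arrays numbered 2 the lowest for 40 and 39.

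**Figure D2:**
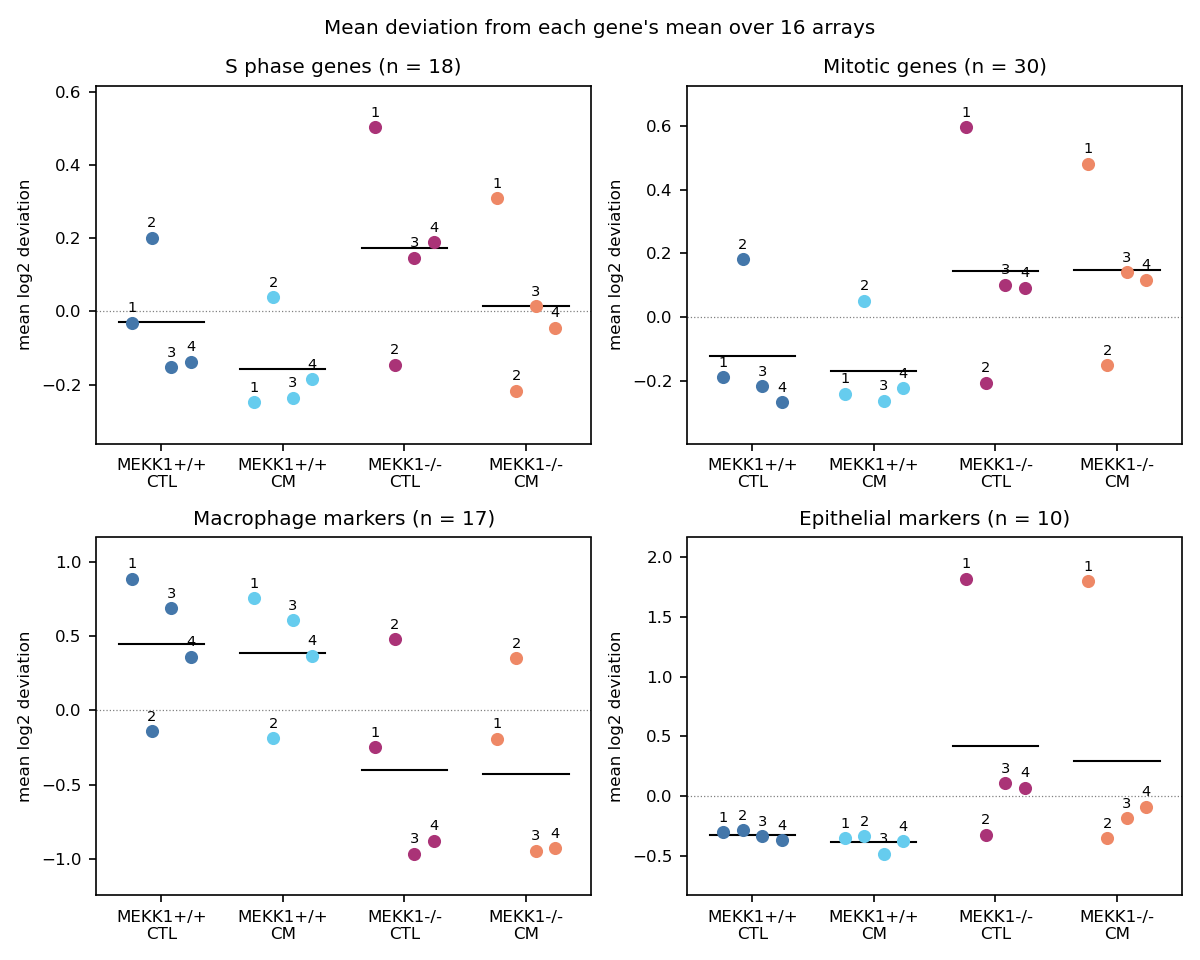
Mean log2 deviation from each gene's mean over 16 arrays, for 18 S phase genes, 30 mitotic genes, 17 macrophage markers and 10 epithelial markers; each point is an array with its replicate number, and the line is the mean of its group of 4. On the arrays numbered 2 the S phase mean was 0.20 and 0.04 in MEKK1+/+ cells and -0.15 and -0.22 in MEKK1-/- cells, and the macrophage mean was -0.14 and -0.19 against 0.48 and 0.35.

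Exposure to CM gave lower values for several S phase genes in both genotypes and higher values for CDT1 and TPX2, but no gene of the 52 passed an adjusted p of 0.05 in the fit over all 16 arrays. In MEKK1+/+ cells the limma test called 0 of 52, with 5.01% of all genes called, and at an unadjusted p under 0.05 it gave 3 genes higher and 4 lower, where 8.18% of all genes were higher and 8.64% lower. In MEKK1-/- cells it called 0 of 52, with 4.69% of all genes called, and gave 2 higher and 4 lower at the unadjusted level, where 7.68% and 8.54% of all genes were. The z-test of the study's methods called 0 in both, with 1.29% and 1.28% of all genes called. The shares of the 52 genes at the unadjusted level were thus below those of the table in each direction of each genotype. The differences of the 52 genes ran from -0.54 to 0.58 and from -0.59 to 0.57.

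The signs leaned downwards among S phase genes in both genotypes, and among mitotic genes in MEKK1+/+ cells only. Of 18 S phase genes, 14 in MEKK1+/+ and 15 in MEKK1-/- cells were below 0. Of 30 mitotic genes, 21 and 14 were. In MEKK1+/+ cells 37 of the 52 differences were below 0, and in MEKK1-/- cells 32 were, where 50.7% and 51.8% of all genes were. The median difference was -0.06 and -0.04 over the 52 genes, -0.09 and -0.16 over the 18 S phase genes, and -0.06 and 0.01 over the 30 mitotic genes, beside -0.002 and -0.004 over all genes. The tally over the 52 genes rested on single arrays: 25 of 52 were below 0 without MEKK1+/+ CTL array 2 (median 0.010), and in MEKK1-/- cells 17 without CTL array 1 (median 0.028) and 25 without CM array 2 (median 0.0070). With single arrays left out, the S phase median ran from -0.21 to -0.038 in MEKK1+/+ and from -0.22 to -0.048 in MEKK1-/- cells, the highest without MEKK1+/+ CTL array 2 and MEKK1-/- CTL array 1. The 4 nucleotide supply genes, RRM1, RRM2, TYMS and TK1, had medians of -0.39 and -0.37, and all 4 were below 0 in both genotypes. The 11 licensing and fork genes had medians of -0.05 and -0.12, and the 3 regulators of S phase entry (CCNE1, CCNE2 and E2F1) of -0.02 and -0.02. The comparisons within the genotypes share no arrays, but share the fit's estimate of spread.

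Promoters are shown for TK1, RRM2 and CDT1, the S phase genes that passed the threshold when the MEKK1-/- arrays were taken as pairs, and for MCM3, the gene nearest to it without pairs. RefSeq promoters of 300 bases (250 before the start and 50 after, build GRCm38.p6) were given for 43 of the 52 genes, 15 of S phase, 26 of mitosis and 2 of G1. For genes with several promoters (2 of the 15, 2 of the 26 and both of G1), the first listed was used, here and over all genes. They were searched on both strands for the E2F sites TTTCCCGC, TTTCGCGC, TTTGCCGC and TTTGGCGC, for TTTGAA (the cell cycle genes homology region, CHR, where MuvB complexes bind) and for CCAAT, the site of NF-Y. The capitals mark these letters on either strand. TK1 lies at chr11:117825965-117826264, minus strand, MCM3 at chr1:20820263-20820562, minus strand, RRM2 at chr12:24708004-24708303, plus strand, and CDT1 at chr8:122567765-122568064, plus strand.
TK1: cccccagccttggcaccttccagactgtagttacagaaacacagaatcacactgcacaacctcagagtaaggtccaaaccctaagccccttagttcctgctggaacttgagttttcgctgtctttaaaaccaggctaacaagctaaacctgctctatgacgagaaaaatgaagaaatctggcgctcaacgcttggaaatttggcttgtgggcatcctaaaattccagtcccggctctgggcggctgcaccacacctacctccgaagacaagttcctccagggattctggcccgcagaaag
RRM2: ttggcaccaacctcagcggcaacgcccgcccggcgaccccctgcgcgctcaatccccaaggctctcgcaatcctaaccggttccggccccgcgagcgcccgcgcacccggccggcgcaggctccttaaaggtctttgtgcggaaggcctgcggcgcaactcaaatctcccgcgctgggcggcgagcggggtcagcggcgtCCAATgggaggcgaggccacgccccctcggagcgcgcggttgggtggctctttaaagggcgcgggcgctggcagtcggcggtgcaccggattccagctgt
MCM3: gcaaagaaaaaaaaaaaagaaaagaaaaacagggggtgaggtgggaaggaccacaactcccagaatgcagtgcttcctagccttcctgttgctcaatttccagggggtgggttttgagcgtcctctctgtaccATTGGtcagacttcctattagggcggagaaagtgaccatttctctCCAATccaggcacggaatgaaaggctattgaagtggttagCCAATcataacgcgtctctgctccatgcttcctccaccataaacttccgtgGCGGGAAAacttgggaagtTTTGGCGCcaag
CDT1: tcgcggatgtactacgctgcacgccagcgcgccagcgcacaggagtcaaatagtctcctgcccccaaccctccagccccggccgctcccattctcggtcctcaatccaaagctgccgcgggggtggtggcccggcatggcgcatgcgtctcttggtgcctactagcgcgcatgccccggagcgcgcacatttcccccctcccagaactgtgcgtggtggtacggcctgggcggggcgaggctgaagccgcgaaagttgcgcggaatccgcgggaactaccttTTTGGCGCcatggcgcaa
The MCM3 promoter held 2 E2F sites and 3 CCAAT boxes, that of CDT1 held 1 E2F site, that of RRM2 held 1 CCAAT box, and that of TK1 held none of these letters. An E2F site was in 6 of 15 S phase promoters (40.0%) and in 1 of 26 mitotic ones (3.85%), where 2.32% of 27025 promoters of all genes held it. Counting any promoter of a gene, a choice made after seeing the data, it was in 7 of 15 S phase genes (46.7%), in 1 of 26 mitotic genes and in 2.6% of all genes. CCAAT was in 9 of 15 S phase promoters, and in 37.9% of all. These matches describe the letters of the windows and are no sign of binding.

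TK1, thymidine kinase of the salvage pathway, gave 8.93, 9.23, 8.64 and 8.64 in MEKK1+/+ CTL and 8.24, 8.90, 8.03 and 8.13 in CM. MEKK1-/- arrays gave 9.64, 8.92, 9.21 and 9.32 in CTL and 9.21, 8.06, 8.81 and 8.64 in CM. In each genotype 3 of the 4 CM arrays were below all CTL arrays, and the groups overlapped through CM array 2 in MEKK1+/+ and CM array 1 in MEKK1-/-. The difference was -0.53 ± 0.24 (SE, limma adjusted p = 0.263) and -0.59 ± 0.24 (adjusted p = 0.206).

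RRM2, the small subunit of ribonucleotide reductase, gave 9.09, 9.31, 8.90 and 9.14 in MEKK1+/+ CTL and 8.77, 8.69, 8.59 and 8.68 in CM. These groups did not overlap. RRM2 and MCM3 were the genes of the 52 whose arrays did not overlap in MEKK1+/+ cells, both lower with CM, where 5.02% of all genes were. On the MEKK1-/- arrays it gave 9.91, 9.07, 9.47 and 9.52 in CTL and 9.36, 8.81, 9.08 and 8.97 in CM, where the ranges overlapped through CTL array 2. The difference was -0.43 ± 0.15 (SE, limma adjusted p = 0.122, exact permutation p = 0.0286, the smallest that 4 against 4 arrays allow) and -0.44 ± 0.15 (adjusted p = 0.117, exact permutation p = 0.0857).

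MCM3, a subunit of the MCM helicase that opens DNA at replication origins, was the gene nearest to the threshold. It gave 7.44, 7.87, 7.50 and 7.58 in MEKK1+/+ CTL and 6.96, 6.998, 7.07 and 7.20 in CM, 4 values below all 4 of CTL. It is a dim probe: all 4 of the CM values were below the background level of their arrays. The measured difference was -0.54 ± 0.15 (SE, limma adjusted p = 0.0545, range 0.0144 to 0.377 over the alternatives other than leaving out an array). In MEKK1-/- cells it gave 8.17, 7.22, 7.86 and 7.57 in CTL and 7.42, 7.21, 7.23 and 7.27 in CM, a difference of -0.42 ± 0.15 (adjusted p = 0.146), with overlap through CTL array 2. For none of the 52 genes did the MEKK1-/- arrays of CTL and CM stay apart, where 10.4% of all genes did. Without the MEKK1-/- CTL array numbered 2 the difference in MEKK1-/- cells was -0.59, and MCM3, RRM2 and CDKN2C passed the threshold. That array stood apart in these same genes, and the share of all genes called without it is not given here.

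The other helicase subunits were less even. MCM5 gave 10.15, 11.12, 10.43 and 10.23 against 9.79, 10.53, 9.74 and 9.89 with CM in MEKK1+/+ cells, a difference of -0.49 ± 0.29 (SE, limma adjusted p = 0.434). For MEKK1-/- cells MCM5 gave 11.60, 10.19, 10.75 and 10.65 against 10.96, 10.12, 10.32 and 10.41, a difference of -0.34 ± 0.29 (adjusted p = 0.661). Both pairs of groups overlapped. MCM2 and MCM4 had differences of -0.12 and -0.19 in MEKK1+/+ and -0.20 and -0.31 in MEKK1-/- cells, and MCM6 of -0.32 and -0.28. PCNA, the sliding clamp of the replication fork, differed by -0.03 ± 0.14 and -0.12 ± 0.14 (SE). E2F1, the activator of this programme, differed by 0.12 ± 0.13 and 0.03 ± 0.13, and cyclin E1 (CCNE1) by -0.03 ± 0.13 and -0.20 ± 0.13, with none of these 6 values at an unadjusted p under 0.05.

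CDT1, which loads the MCM helicase onto origins in G1 and is destroyed once S phase begins, lay the other way. It gave 8.90, 9.96, 9.38 and 9.59 in MEKK1+/+ CTL and 9.88, 10.36, 9.92 and 10.00 with CM. MEKK1-/- cells gave 10.49, 9.41, 10.01 and 9.84 in CTL and 10.81, 10.36, 10.39 and 10.47 with CM. Only 1 CTL array reached into the CM range in each genotype, number 2 in MEKK1+/+ and number 1 in MEKK1-/-. The difference was 0.58 ± 0.22 (SE, limma adjusted p = 0.175) and 0.57 ± 0.22 (adjusted p = 0.192). Geminin (GMNN), which binds and blocks CDT1, was at 6.83 to 7.24 on all arrays, at or near background.

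Among the mitotic genes TPX2, the spindle factor that activates Aurora A, gave 8.84, 9.29, 8.70 and 8.67 in MEKK1+/+ CTL and 9.12, 9.82, 8.94 and 8.91 with CM. On MEKK1-/- arrays TPX2 gave 9.71, 9.13, 9.43 and 9.22 and then 10.14, 9.32, 9.78 and 9.96. The groups overlapped, and the difference was 0.32 ± 0.22 (SE, limma adjusted p = 0.538) and 0.43 ± 0.22 (adjusted p = 0.357). KIF22, a chromosome-arm kinesin, differed by 0.27 ± 0.27 and 0.39 ± 0.27. Cyclin B1 (CCNB1) differed by -0.36 ± 0.28 and -0.31 ± 0.28, its kinase CDC2A by -0.06 ± 0.21 and -0.10 ± 0.21, topoisomerase TOP2A by -0.06 ± 0.29 and -0.10 ± 0.29, and CDC20, the activator of the anaphase-promoting complex, by -0.24 ± 0.27 and -0.35 ± 0.27. Each of these differences was smaller than 2 SE.

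**Figure D3:**
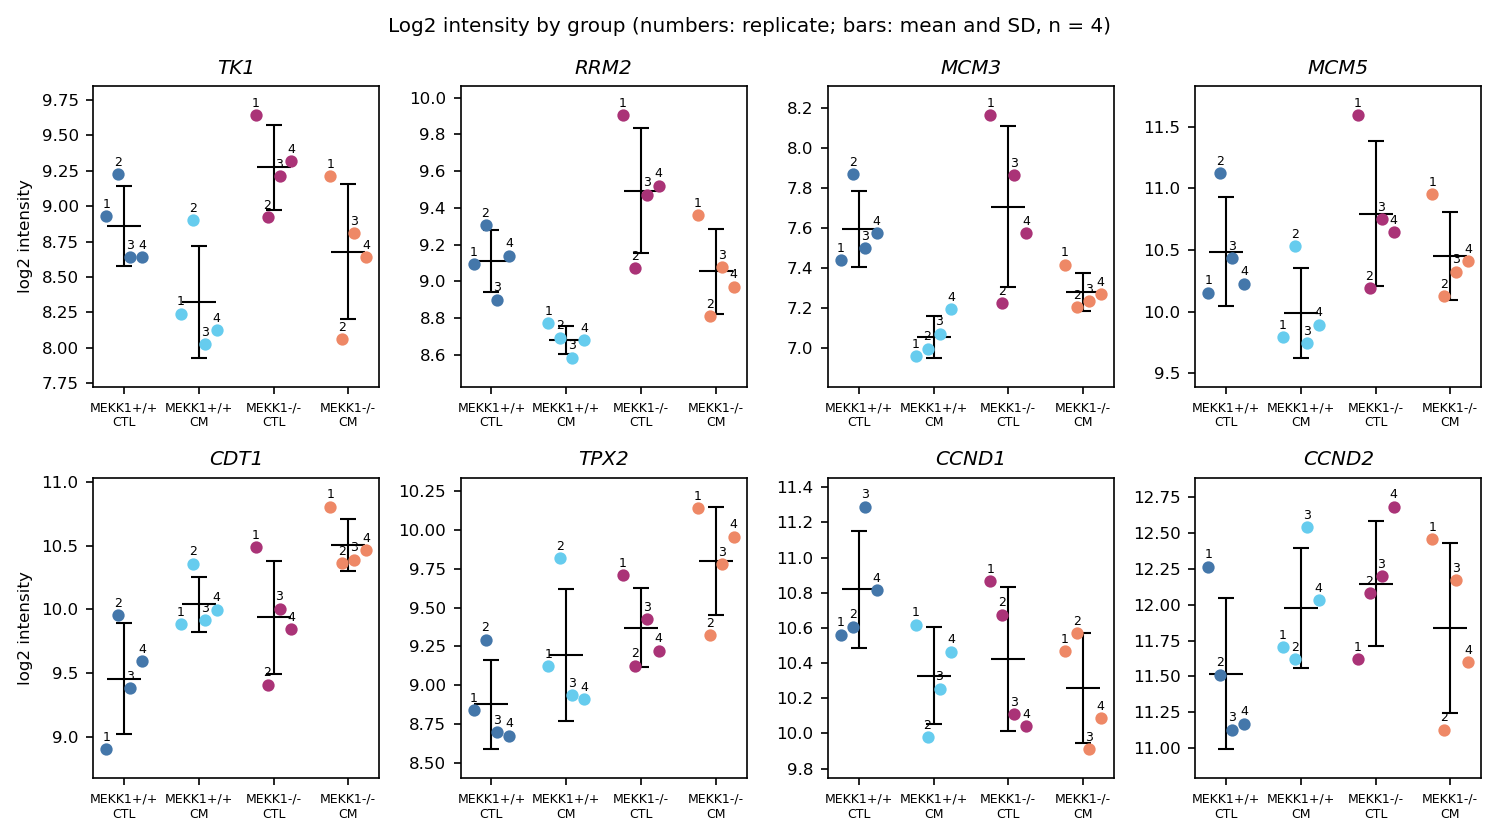
Log2 intensity of 8 genes in the 4 groups; each point is an array with its replicate number, and the bar is the mean and SD of 4 arrays. RRM2 and MCM3 in MEKK1+/+ cells are the genes whose CTL and CM arrays do not overlap.

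Of the G1 genes, cyclin D1 (CCND1) gave 10.56, 10.61, 11.29 and 10.82 in MEKK1+/+ CTL and 10.62, 9.98, 10.25 and 10.46 with CM. The MEKK1-/- arrays gave 10.87, 10.68, 10.11 and 10.04, and then 10.47, 10.57, 9.91 and 10.09. Its difference was -0.49 ± 0.22 (SE, limma adjusted p = 0.259) in MEKK1+/+ and -0.17 ± 0.22 (adjusted p = 0.820) in MEKK1-/- cells, with overlap in both. CDKN2C, the p18 inhibitor of the cyclin D kinases, gave 8.22, 8.61, 8.33 and 8.51 against 7.99, 8.22, 8.10 and 8.35 in MEKK1+/+ cells and 9.03, 8.20, 8.58 and 8.40 against 8.29, 8.13, 7.97 and 8.00 in MEKK1-/- cells. The difference was -0.25 ± 0.15 (limma adjusted p = 0.433) and -0.46 ± 0.15 (adjusted p = 0.0991). CDKN1A, the p21 inhibitor, differed by 0.23 ± 0.18 in each genotype (adjusted p = 0.626 and 0.634).

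In MEKK1-/- cells the CTL and CM arrays of the same number were taken as pairs. Those of each number deviated from their group means together over all genes. Arrays 1 and 2 correlated best with their own number, but arrays 3 and 4 with each other. The numbers thus do not settle the pairing of arrays 3 and 4. With each pair as a block, 5 of the 52 genes passed the threshold: CDKN2C, RRM2 and TK1 fell, and CDT1 and TPX2 rose, while 7.93% of all genes passed. The limma adjusted p with the block was 0.0182 for CDKN2C, 0.00535 for RRM2, 0.00296 for TK1, 0.0164 for CDT1 and 0.0147 for TPX2. Each of these is the lowest value among the alternatives other than leaving out an array, the highest being 0.908 for CDT1 and 1.00 for the other genes. Within pairs, RRM2 was lower by 0.26 to 0.55 and TK1 by 0.40 to 0.86 in 4 of 4. The genes lower in all 4 pairs were 8 of 18 S phase genes (CDC6, MCM3, MCM4, MCM5, MCM6, RRM1, RRM2 and TK1), 2 of 30 mitotic genes (FOXM1 and KIF11) and CDKN2C. Over all genes 13.5% were. Higher in all 4 were CDT1, TPX2, TTK, CENPA and CDKN1A, where 12.5% of all genes were. The pair difference nearest 0 was -0.001 for CDC6 and RRM1, -0.018 for MCM3 and 0.032 for CENPA, in effect little or no change in that pair. Of the 4 MEKK1-/- arrays in each group, CDC6 was above background on 3 in CTL and 2 with CM. TTK was above it on 0 and 3. The calls with CM also moved with the arrays that stood apart. Without the arrays numbered 2 the limma test called 0 of 52 in MEKK1+/+ cells (2.51% of all genes) and 1 in MEKK1-/- cells (MCM3, lower; 3.57%). Without the MEKK1-/- arrays numbered 1 it called 3 in MEKK1+/+ cells (GMNN higher, MCM3 and RRM2 lower; 6.06%), through the shared estimate of spread, and 0 in MEKK1-/- cells (4.24%). Without both sets it called 5 (CDT1 higher, MCM3, MCM5, RRM2 and TK1 lower; 3.92%) and 3 (TPX2 higher, RRM2 and TK1 lower; 2.75%). The same fit also blocked the MEKK1+/+ arrays by number. Its estimate of spread, with 6 residual degrees of freedom, is shared by both genotypes. The MEKK1-/- p-values with the block therefore rest in part on the MEKK1+/+ pairs. The MEKK1+/+ arrays numbered 1 did not deviate together (r = -0.038). Those numbered 2, 3 and 4 did, and correlated best with their own number. The MEKK1+/+ calls with such a block are given further below.

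Between the genotypes most of the 52 genes had higher values on MEKK1-/- arrays, and none passed the threshold. In untreated cells 46 of 52 differences were above 0, and with CM 40 were, where 52.8% and 51.6% of all genes were. The medians were 0.23 and 0.23, beside 0.008 and 0.004 over all genes, and those of the mitotic genes were 0.27 and 0.35. The limma test called 0 of the 52 genes in each, with 0% and 0.00552% of all genes called. At an unadjusted p under 0.05 it gave 8 genes higher and 0 lower in CTL and 9 higher and 1 lower with CM, where 4.92% of all genes were higher and 4.35% lower in CTL, and 4.43% and 3.65% with CM. The 8 in CTL were CCNE1, CDT1, MCM4, RRM2, BUB1B, MAD2L1, CDC20 and TPX2. The 9 with CM were RRM2, BUB1B, MAD2L1, CDC20, UBE2C, KIF22, TPX2, NUSAP1 and CDCA3, and the lower one was the dim GMNN. UBE2C was also dim, above background on 1 of 4 MEKK1+/+ and 3 of 4 MEKK1-/- arrays with CM. The z-test of the study's methods called 0 in CTL (1.22% of all genes) and 1 with CM (KIF22, higher; 1.13%).

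The spindle, chromosome and cytokinesis genes (KIF11, KIF22, KIF2C, TPX2, NUSAP1, PRC1, ECT2, HMMR, CDCA3 and TOP2A) had the role medians farthest from 0, at 0.47 in CTL and 0.51 with CM, with 9 and 10 of 10 above 0. The kinetochore, checkpoint and anaphase-promoting genes had medians of 0.21 and 0.33, the G2/M kinases and cyclins 0.26 and 0.20, the nucleotide supply genes 0.31 and 0.32, the licensing and fork genes 0.15 and 0.22, and the regulators of S phase entry 0.07 and 0.0057. The 4 G1 genes had -0.06 and -0.10. The comparisons of the genotypes in CTL and with CM share no arrays, but their cultures may come from the same mice.

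**Figure D4:**
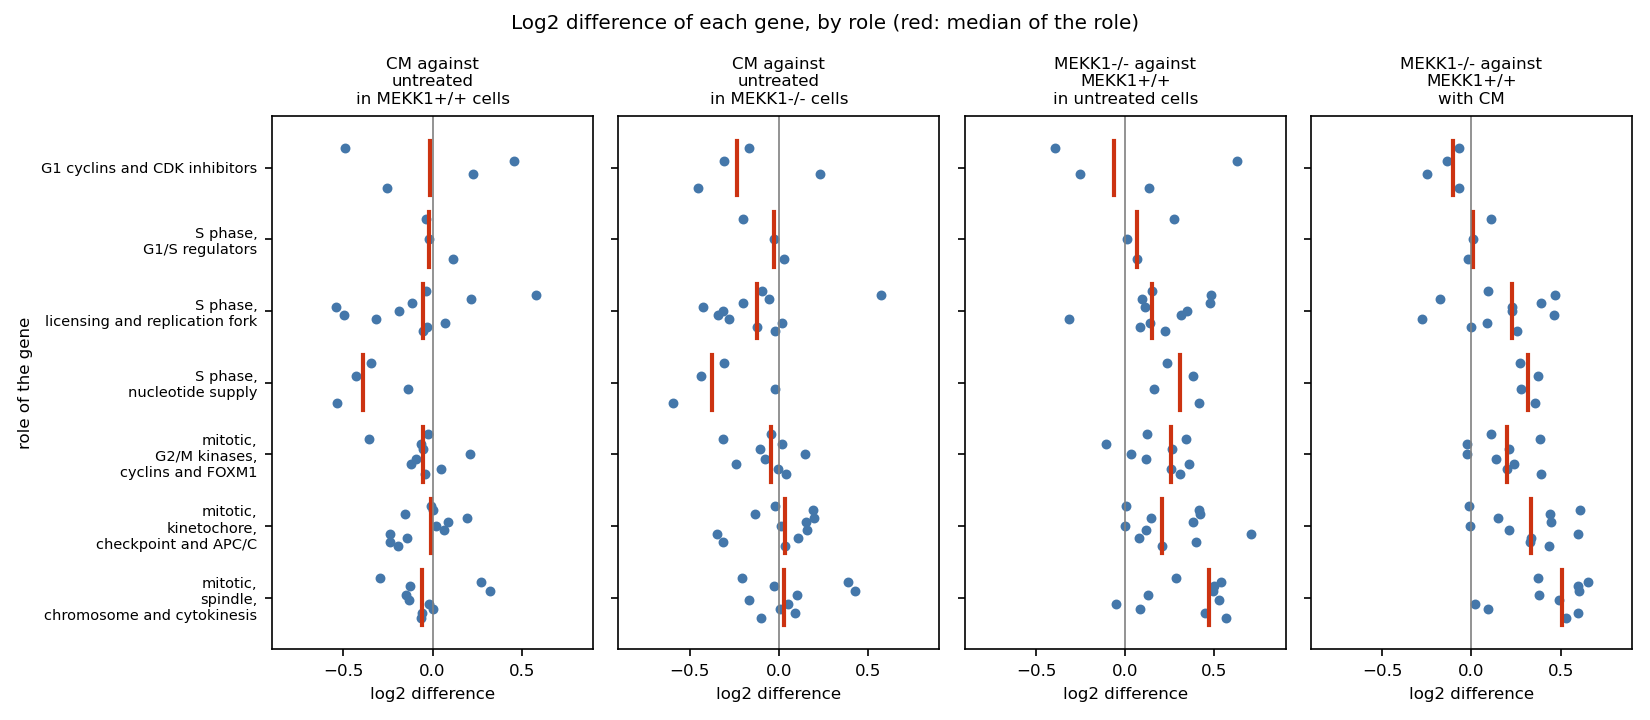
Log2 difference of each of the 52 genes, by role, in 4 comparisons (the first named minus the second); each point is a gene and the red line is the median of its role. The nucleotide supply genes lie at medians of -0.39 and -0.37 with CM, and the spindle, chromosome and cytokinesis genes at 0.47 and 0.51 between genotypes.

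CDC20 had the highest CTL difference. It gave 9.16, 9.97, 9.37 and 9.35 in MEKK1+/+ CTL and 11.06, 9.41, 10.16 and 10.03 in MEKK1-/- CTL, overlapping through the arrays numbered 2. With CM it gave 9.18, 9.45, 8.89 and 9.37 against 10.19, 9.50, 9.74 and 9.86, with no overlap. The difference was 0.70 ± 0.27 (SE, limma adjusted p = 0.499) in CTL and 0.60 ± 0.27 (adjusted p = 0.613, exact permutation p = 0.0286) with CM.

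TOP2A, which untangles DNA before chromosomes part, gave 9.61, 10.30, 9.58 and 9.08 in MEKK1+/+ CTL against 10.87, 9.29, 10.30 and 10.37 in MEKK1-/- CTL, a difference of 0.56 ± 0.29 (SE, limma adjusted p = 0.563). With CM it gave 9.41, 9.70, 9.58 and 9.63 against 10.48, 9.70, 10.25 and 10.01, a difference of 0.53 ± 0.29 (adjusted p = 0.652). The MEKK1-/- CTL array numbered 2 lay below 3 of the 4 MEKK1+/+ arrays, while the other 3 were at 10.30 or above.

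BUB1B, a kinase of the spindle checkpoint, gave 7.98, 8.37, 7.97 and 7.98 in MEKK1+/+ CTL against 8.95, 8.01, 8.52 and 8.48 in MEKK1-/- CTL, a difference of 0.42 ± 0.17 (SE, limma adjusted p = 0.520). With CM it gave 8.15, 8.24, 7.94 and 7.99 against 9.11, 8.61, 8.46 and 8.56, all 4 MEKK1-/- arrays above all 4 MEKK1+/+ arrays, a difference of 0.61 ± 0.17 (adjusted p = 0.473, exact permutation p = 0.0286). With CM the groups did not overlap for 7 of the 52 genes, all higher in MEKK1-/- (CDT1, MCM3, RRM2, BUB1B, CDC20, KIF22 and TOP2A), where 2.33% of all genes were. The dim MCM3 was above background on 0 of 4 MEKK1+/+ and 1 of 4 MEKK1-/- arrays with CM. The nearest arrays of the genotypes lay at 9.697 and 9.700 for TOP2A and at 10.359 and 10.363 for CDT1. In CTL only the dim GMNN did not overlap, where 2.59% of all genes were higher without overlap.

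KIF22 gave 9.56, 10.43, 9.94 and 10.09 against 11.34, 9.90, 10.68 and 10.26 in CTL and 10.32, 10.55, 10.01 and 10.24 against 11.53, 10.65, 10.64 and 10.92 with CM. Its difference was 0.54 ± 0.27 (SE, limma adjusted p = 0.563) and 0.65 ± 0.27 (adjusted p = 0.581). TPX2, with the values given above, differed by 0.49 ± 0.22 (adjusted p = 0.521) and 0.60 ± 0.22 (adjusted p = 0.538). MCM2, a further subunit of the helicase, differed by 0.48 ± 0.24 and 0.39 ± 0.24, cyclin B1 by 0.34 ± 0.28 and 0.38 ± 0.28, and CDC2A by 0.26 ± 0.21 and 0.21 ± 0.21. E2F1 differed by 0.07 ± 0.13 and -0.02 ± 0.13, and PCNA by 0.09 ± 0.14 and -0.01 ± 0.14. TK1 differed by 0.42 ± 0.24 and 0.35 ± 0.24.

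Lower mean values on MEKK1-/- arrays were measured for CCND1, CDKN1A and MCM6. CCND1 differed by -0.40 ± 0.22 (SE, limma adjusted p = 0.580) in CTL and by -0.07 ± 0.22 (adjusted p = 0.944) with CM. CDKN1A gave 12.19, 11.47, 11.85 and 12.36 against 11.46, 11.87, 11.63 and 11.88 in CTL, a difference of -0.25 ± 0.18 (adjusted p = 0.670), and the difference with CM was -0.25 ± 0.18 (adjusted p = 0.722). MCM6 differed by -0.31 ± 0.30 and -0.28 ± 0.30, with the MEKK1-/- arrays numbered 1 at 9.39 and 9.34 and the other 6 at 7.74 to 8.56. Cyclin D2 (CCND2) differed by 0.63 ± 0.32 (adjusted p = 0.562) in CTL and by -0.14 ± 0.32 (adjusted p = 0.926) with CM.

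These genotype values moved with the arrays that stood apart. Without the 4 arrays numbered 2, the medians were 0.41 in CTL and 0.46 with CM. The limma test then called 6 of 52 in CTL (MCM4, RRM2, CDC20, TPX2, PRC1 and TOP2A, all higher in MEKK1-/-; 2.09% of all genes called) and 1 with CM (TPX2, higher; 0.662% of all genes). Without the MEKK1-/- arrays numbered 1 the medians were 0.11 and 0.14, and the limma test called 0 of 52 in each (0.00552% and 0.011% of all genes). At an unadjusted p under 0.05 this left 1 higher and 2 lower in CTL and 7 higher and 2 lower with CM, and the z-test was not run on these arrays. The share of all genes at the unadjusted level is not given here for these arrays. The unadjusted counts are therefore not set against the table. Without both sets 10 of 52 were called in CTL (1.75% of all genes) and 8 with CM (0.965%), all higher in MEKK1-/-. These arrays were picked with the values of the same genes in view, so the counts describe the remaining arrays and are no test of the genotype. Their macrophage and epithelial marker levels, given above, differed along with the cell cycle genes, and the part of either in the genotype difference was not tested.

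Promoters of CDC20 and TOP2A are shown, to set beside those of the S phase genes, since these were the mitotic genes with the highest genotype differences in CTL. With CM, KIF22, BUB1B and TPX2 had higher ones. CDC20 lies at chr4:118437294-118437593, minus strand, and TOP2A at chr11:99024140-99024439, minus strand, with CHR and CCAAT letters of either strand in capitals.
CDC20: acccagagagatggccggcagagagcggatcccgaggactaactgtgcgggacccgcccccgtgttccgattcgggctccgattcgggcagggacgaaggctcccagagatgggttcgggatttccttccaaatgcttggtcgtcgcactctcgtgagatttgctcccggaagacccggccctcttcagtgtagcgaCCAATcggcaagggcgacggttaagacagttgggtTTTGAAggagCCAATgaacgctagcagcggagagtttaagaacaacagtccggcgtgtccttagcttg
TOP2A: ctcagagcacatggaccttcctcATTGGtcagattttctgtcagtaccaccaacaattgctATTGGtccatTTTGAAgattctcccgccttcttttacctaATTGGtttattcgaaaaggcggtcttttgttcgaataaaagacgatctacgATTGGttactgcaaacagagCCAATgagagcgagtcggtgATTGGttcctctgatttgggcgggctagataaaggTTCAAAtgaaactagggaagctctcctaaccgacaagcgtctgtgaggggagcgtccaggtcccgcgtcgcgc
The CDC20 window held 1 CHR and 2 CCAAT boxes, and that of TOP2A held 2 CHR and 6 CCAAT boxes. CHR letters were in 19 of 26 mitotic promoters (73.1%) and in 1 of 15 S phase promoters (6.67%), where 18.1% of all promoters held them. CCAAT was in 21 of 26 (80.8%), and both were in 17 of 26 (65.4%) against 7.12% of all promoters. No window of CDC20 or TOP2A held the E2F letters searched.

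**Figure D5:**
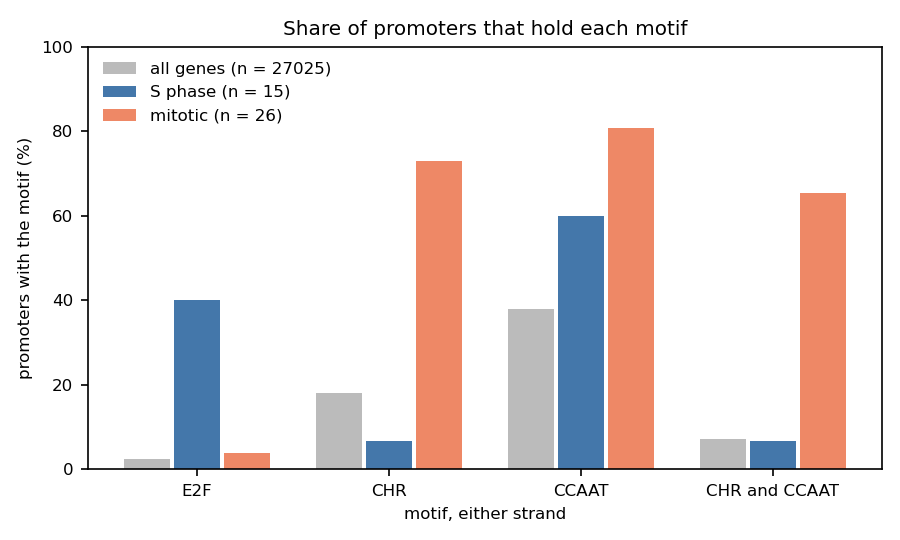
Percent of 300-base RefSeq promoters that hold each motif on either strand, for 27025 genes, 15 S phase genes and 26 mitotic genes. The E2F letters were in 40.0% of S phase promoters and the CHR letters in 73.1% of mitotic promoters, against 2.32% and 18.1% of all genes.

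The response to CM was not shown to differ between genotypes for any of the 52 genes. The interaction (the MEKK1-/- response minus the MEKK1+/+ response) was above 0 for 27 and below 0 for 25, with a median of 0.003, where 49.5% of all genes were above 0. The limma test called 0 of 52 and 0% of all genes, and gave 0 genes higher and 1 lower (the dim GMNN) at an unadjusted p under 0.05, where 1.17% of all genes were higher and 1.43% lower. The z-test of the study's methods called 1 of 52, CCND2, with 0.403% of all genes called. The signs turned with single arrays: 12 of 52 were above 0 without MEKK1+/+ CTL array 2 and 42 without MEKK1-/- CTL array 1.

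CCND2, a cyclin that drives G1 with CDK4 and CDK6, had the interaction farthest from 0. It gave 12.27, 11.51, 11.13 and 11.17 in MEKK1+/+ CTL and 11.70, 11.62, 12.54 and 12.03 with CM, and 11.62, 12.08, 12.20 and 12.68 and then 12.45, 11.13, 12.17 and 11.60 in MEKK1-/- cells. The arrays of each group were spread widely, and all groups overlapped. The difference with CM was 0.45 ± 0.32 in MEKK1+/+ and -0.31 ± 0.32 in MEKK1-/- cells, and the interaction was -0.76 ± 0.45 (SE, limma adjusted p = 1.00). Next came CCND1 at 0.32 ± 0.31, the dim UBE2C at 0.25, NUSAP1 at 0.25, CDKN2C at -0.20 and CCNE1 at -0.17, all at an adjusted p of 1.00.

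Of the wider pathway, 149 further genes were measured from lists of the RB and E2F family, other cyclins and kinases, origin firing and DNA synthesis, spindle and cytokinesis, and p53 targets. With CM 1 rose and 4 fell in MEKK1+/+ cells, and 1 rose and 2 fell in MEKK1-/- cells, beside 5.01% and 4.69% of all genes called, so that 5 and 3 of 149 are below the share of the table. Between genotypes and in the interaction 0 passed the limma threshold. GADD45A, a p53 target that restrains CDC2A, gave 10.69, 10.97, 10.81 and 11.01 in MEKK1+/+ CTL and 11.76, 11.55, 11.56 and 11.26 with CM. The MEKK1-/- arrays gave 10.06, 10.74, 10.34 and 10.19, and then 11.37, 11.41, 11.996 and 11.78. No CM array overlapped the CTL arrays of its genotype. GADD45A rose by 0.66 ± 0.16 (SE, limma adjusted p = 0.0262) and 1.31 ± 0.16 (adjusted p = 0.000395), with an interaction of 0.65 ± 0.23 (adjusted p = 1.00).

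E2F6, a repressor of the E2F family, gave 10.22, 10.25, 9.99 and 9.75 against 9.55, 9.64, 9.48 and 9.55 in MEKK1+/+ cells, with no overlap, and fell by 0.50 on the log2 scale (SE 0.11, limma adjusted p = 0.0189). MEKK1-/- arrays gave 10.22, 9.93, 10.18 and 10.22 against 9.71, 9.29, 9.70 and 9.55 and fell by 0.57 (SE 0.11, adjusted p = 0.00901). BUB3, a spindle checkpoint protein, fell by 0.52 (SE 0.10, adjusted p = 0.00899) in MEKK1+/+ and by 0.51 (SE 0.10, adjusted p = 0.0106) in MEKK1-/- cells. PLK2, a polo-like kinase of G1, fell by 0.79 (SE 0.20, adjusted p = 0.0300) in MEKK1+/+ cells and had a difference of -0.70 (SE 0.20, adjusted p = 0.0564) in MEKK1-/- cells. With the MEKK1-/- arrays as pairs PLK2 passed the threshold there (adjusted p = 0.0259, range 0.0259 to 0.812 over the alternatives other than leaving out an array). PHLDA3, a p53 target that restrains AKT, fell by 0.38 (SE 0.11, adjusted p = 0.0479) in MEKK1+/+ cells and had a difference of -0.29 (SE 0.11, adjusted p = 0.156) in MEKK1-/- cells, where it passed with the pairs as a block (adjusted p = 0.0211, range 0.0211 to 1.00).

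Some of these calls depended on the scaling. On the values as deposited, the calls of E2F6 and GADD45A were lost in both genotypes, and that of BUB3 in MEKK1-/- cells. E2F6 had differences there of -0.92 and -0.62 (limma adjusted p = 0.0573 and 0.828), GADD45A of 0.23 and 1.21 (0.467 and 0.0837) and BUB3 of -0.50 in MEKK1-/- cells (0.751), so that of these only GADD45A in MEKK1+/+ cells was far smaller than after normalization. With arrays scaled to the same median those of E2F6 in both genotypes, GADD45A in MEKK1+/+ and BUB3 in MEKK1-/- cells were lost, at differences of -0.64 and -0.62 (adjusted p = 0.0532 and 0.0871), 0.52 (0.205) and -0.50 (0.0518). PHLDA3 was not called in a fit of only its groups or with trended robust eBayes. The z-test ended the calls of E2F6 and BUB3 in both genotypes and of GADD45A and PHLDA3 in MEKK1+/+ cells. Leaving out single arrays ended no call in MEKK1-/- cells. In MEKK1+/+ cells the call of E2F6 was lost without CTL array 1 or 2 or CM array 3 or 4 (highest adjusted p = 0.0673, limma). That of GADD45A was lost without any of the CTL or CM arrays 1 to 3 (highest 0.0766), and that of PLK2 without CTL array 1, 2 or 3 or CM array 3 or 4 (highest 0.0936). PHLDA3 lost its call without any MEKK1+/+ CTL array, MEKK1+/+ CM array 2 or 3, MEKK1-/- CTL array 2, 3 or 4 or any MEKK1-/- CM array (highest 0.139). Without the arrays numbered 2, GADD45A (limma adjusted p = 0.0538) and PHLDA3 (0.145) were not called in MEKK1+/+ cells. Without those and the MEKK1-/- arrays numbered 1, PHLDA3 in MEKK1+/+ (0.0908) and E2F6 in MEKK1-/- cells (0.0511) were not called. Without only the MEKK1-/- arrays numbered 1, PLK2 passed in MEKK1-/- cells (0.0307). Among the same 149 genes, 37 of 43 origin firing and synthesis genes and 50 of 54 spindle and cytokinesis genes had a higher mean on MEKK1-/- CTL arrays, and 34 and 47 with CM, where 52.8% and 51.6% of all genes did. For the RB and E2F family it was 13 and 10 of 16, for other cyclins, kinases and inhibitors 11 and 10 of 18, and for p53 targets 8 and 8 of 19. These tallies are not given here without the arrays that stood apart.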

How the data were processed

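Mammary fibroblasts of 4 groups were profiled on 16 Illumina Mouse 8 arrays. The deposited table holds linear intensity, 1 value for each of 18132 gene symbols, which a core facility of the authors had labelled, scanned and normalized; the normalization, background treatment and probe summary are not given in the sources used here. The number of arrays limits the precision. Values were turned into log2, quantile normalized (limma 3.58.1, R 4.3.3) and fitted with lmFit and eBayes as 4 group means over all 16 arrays, without a block (12 residual degrees of freedom). P-values were adjusted by Benjamini-Hochberg over all genes, with a threshold of 0.05. Exact permutation tests were two-sided over 70 splits, the smallest p being 0.0286. The study's methods used z-scores and a z-test, run as an alternative with other scalings, filters, blocks and left-out arrays. On simulated data 61.0% of 200 genes changed by 0.5 and 95.0% of those changed by 1 on the log2 scale were recovered (CM in MEKK1+/+ cells, 18132 genes). This simulation was of the whole table, where 8251 genes were above background on no array. Recovery among the cell cycle genes alone was not tested, so these shares do not give the chance of calling a change in them.

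Replicate numbers come from the labels. Arrays of the same number deviated together over all genes in MEKK1-/- cells (r = 0.505, 0.403, 0.219 and 0.251), which were taken as pairs. In MEKK1+/+ cells 1 of 4 did not (r = -0.038, 0.485, 0.120 and 0.576). Over the 52 genes alone the MEKK1-/- values were 0.571, 0.438, 0.085 and -0.115. The fit with pairs blocked both genotypes by number, with a shared estimate of spread. The genes and lists were chosen with earlier results of these data known. Genes named were members past the threshold, the 3 largest differences in each direction per comparison among members above background on at least 4 arrays, 12 cell cycle genes whatever their values, pathway genes past the threshold and MAP3K1; other genes were named to complete a count. Of the 52 symbols, 51 matched RefSeq by symbol and 1 by an older symbol; no symbol was repeated in the table. Markers of fat cells (7 measured, 6 above background on no array) and lymphocytes (8, 6) were also read, with sums of 772 to 969 and 1022 to 1160. Figures were drawn with matplotlib.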

Additional observations from a re-analysis of the deposited data

Results flagged for a closer look

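In 104 groups of 4 arrays tested for a lone extreme value, 6 held an array far from the other 3, and chance gives about 1 in 20. BUB1B was 8.37 on the MEKK1+/+ CTL array numbered 2, against 7.97 to 7.98 on the others. The mean deviation of the mitotic genes was 0.052 on the MEKK1+/+ CM array numbered 2, against -0.26 to -0.22. Both arrays are of those that stood apart over most of the 52 genes. E2F6 was 9.93 on the MEKK1-/- CTL array numbered 2, against 10.18 to 10.22. On the MEKK1-/- CTL array numbered 1, PHLDA3 was 11.36, against 11.00 to 11.05, and PLK2 was 10.99, against 11.68 to 11.71. BUB3 was 8.48 on the MEKK1-/- CM array numbered 1, against 8.01 to 8.05. The last 3 values were on the arrays with the highest epithelial marker levels, whose part in them was not tested.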

How the results depend on the processing

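The count of the 52 genes called with CM in MEKK1+/+ cells, 0 of 52, was 4 on the values as deposited (CCND1, CDKN2C, MCM3 and RRM2, lower), 1 (MCM3, lower) with arrays scaled to the same median, with z-scores, above the median level, above the olfactory receptor level or with trended robust eBayes, and 2 (MCM3 and RRM2) in a fit of only these groups. It ran from 0 to 1 with single arrays left out (1 without MEKK1-/- CTL replicate 1 or 2), was 3 without the MEKK1-/- arrays numbered 1 and 5 without those and the arrays numbered 2. In MEKK1-/- cells it ran from 0 to 3 (3 without MEKK1-/- CTL replicate 2, 1 without MEKK1-/- CM replicate 1), and was 1 without the arrays numbered 2 and 3 without both sets. Between genotypes the counts were 0 to 0 with single arrays left out, and with other arrays left out 6 and 10 in CTL and 1 and 8 with CM. The z-test called 1 with CM (KIF22) and 1 in the interaction (CCND2). The shares of all genes called under the other scalings, filters and single left-out arrays are not given here. Those counts are therefore not set against the table. On the values as deposited the median of all genes with CM in MEKK1+/+ cells also fell, as given below. Leaving out the arrays numbered 2, the MEKK1-/- arrays numbered 1 or both was chosen after seeing the data. The cause was not tested.

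With the replicate number as a block shared by all groups, 0 were called in every comparison. With a block within each genotype 5 were called in MEKK1-/- cells, and 5 in MEKK1+/+ cells (CDT1 higher; MCM3, MCM5, RRM2 and TK1 lower; 8.17% of all genes), where the numbers did not all pair; in MEKK1+/+ cells arrays 2, 3 and 4 correlated best with their own number, and in MEKK1-/- cells arrays 1 and 2 did, while 3 and 4 correlated best with each other. The block changed no other count of the 52 genes.

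The medians with single arrays left out ran from -0.12 to 0.01 and from -0.14 to 0.03 for CM in MEKK1+/+ and MEKK1-/- cells, from 0.11 to 0.34 and from 0.14 to 0.35 between genotypes in CTL and CM, and from -0.10 to 0.14 for the interaction. On the values as deposited the median was -0.45 for CM in MEKK1+/+ cells and 0.33 for the interaction, where the median of all genes moved to -0.28 and 0.28 (and to 0.28 between genotypes with CM), and without the arrays numbered 2 it was 0.46 between genotypes with CM.

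On the values as deposited, CM in MEKK1+/+ cells gave TPX2 -0.075 and KIF22 -0.13, the genotype difference with CM of CCND1 was 0.0092, and the interactions of CDKN2C and CCNE1 were 0.20 and 0.20, each of the other sign. With CM between genotypes, CCND2 ran from -0.34 to 0.10 with single arrays left out (above 0 without MEKK1+/+ CM replicate 3 or MEKK1-/- CM replicate 2), and CCND1 from -0.19 to 0.045 (above 0 without MEKK1+/+ CM replicate 1 or MEKK1-/- CM replicate 3). For single genes, 1444 other values kept direction and side of the threshold, 58 came to pass it and 49 no longer did.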
